A study of Mus musculus with 12 samples.

Results

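Nr1h4, Nr5a2, Atp8b1, Cyp7a1 and Cyp8b1 are liver genes that sense bile acids, hold the membranes that secrete them or make them, and their transcripts were followed in each of 12 mouse livers. The rule used gene names alone: a row belonged to the set when GENCODE vM1 gives its Ensembl identifier to one of these genes. They are 5 of the 51609 rows of the count table, and all 5 passed the filter on low counts. The livers came from C57BL/6 mice in 4 groups of 3. Wild-type mice drank water or received 2% dextran sodium sulfate (DSS), a polymer that injures the colon epithelium, for 6 days, and mice of the RelaΔhepStat3Δhep genotype had the same treatments. By the methods of the study the knockout mice carry a Cre recombinase under the albumin promoter, which acts in hepatocytes, and the wild-type mice are their Cre-negative littermates with floxed Rela, Stat3 or both. By that design the other cells of the liver are meant to keep both genes, which counts of whole liver do not check. The mice were young, of either sex, and no sex was given for a single mouse. Depth ran from 65879529 to 82850098 estimated counts per library, and the lowest estimated count of any of the 5 genes in any library was 300, so counting error was small beside the spread between mice.

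Bile acids are made from cholesterol in hepatocytes. Cyp7a1 encodes cholesterol 7-alpha-hydroxylase, which starts the classical route and limits its rate, and Cyp8b1 encodes the sterol 12-alpha-hydroxylase, which steers the products towards cholic acid. Nr1h4 encodes FXR, the nuclear receptor that binds bile acids and lowers their synthesis, in part through the repressor SHP, the product of Nr0b2. Nr5a2 encodes LRH-1, a nuclear receptor that activates transcription of both hydroxylase genes. Atp8b1 encodes a phospholipid flippase that protects the canalicular membrane against bile salts and works with the subunit encoded by Tmem30a. The study proposes that Rela and Stat3 in hepatocytes support expression of bile acid synthesis enzymes during colitis, and it names Cyp7a1 and Cyp8b1 among them. Its RT-qPCR gave less mRNA of both genes in knockout than in wild-type livers after DSS. Its discussion describes both as upregulated in colitis. RT-qPCR is a different assay from the sequencing counts read here.

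In the mm9 annotation all 5 genes lie on the minus strand, Atp8b1 at the position given with its values. Nr1h4 (ENSMUSG00000047638) spans chr10:88916979-88996330 with 10 exons in its longest transcript, and Nr5a2 (ENSMUSG00000026398) spans chr1:138740161-138857004 with 9 exons. Cyp7a1 (ENSMUSG00000028240) spans chr4:6192759-6202780 with 6 exons. Cyp8b1 (ENSMUSG00000050445) is a gene of 1 exon at chr9:121823474-121825423. No other annotated gene overlaps any of them. The annotation used for counting was not given in the sources used here, and levels per kb assume the union of GENCODE vM1 exons.

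The promoter of Cyp8b1 is shown because it carries a site for one of the other 4 genes. Promoter sequences came from RefSeq (GRCm38.p6), in which 3 of the 5 genes had an entry: Nr1h4, Nr5a2 and Cyp8b1. The 250 bases before the Cyp8b1 start, chr9:121916306-121916555 on the minus strand of GRCm38.p6, are printed 5′ to 3′ with the motif matches in capitals.
Cyp8b1: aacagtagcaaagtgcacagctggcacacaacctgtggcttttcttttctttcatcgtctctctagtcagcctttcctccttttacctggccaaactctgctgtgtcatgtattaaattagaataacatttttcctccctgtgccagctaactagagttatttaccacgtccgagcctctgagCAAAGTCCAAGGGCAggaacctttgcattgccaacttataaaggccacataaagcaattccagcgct
The capitals join overlapping matches of a pair of motifs. CAAGGNCA, the core that LRH-1 binds, lay at -60 to -53 from the start, and CAAAGTCCA, a motif of the hepatocyte factor HNF4, lay at -67 to -59, both on the strand of the gene. Of 32851 promoters of 300 bases, searched on both strands, 6.71% held CAAGGNCA and 0.475% held CAAAGTCCA. The arrangement printed in capitals, with both motifs sharing 2 bases, was written down after the Cyp8b1 sequence had been read, and was found in 1 of them. Neither motif was in the Nr1h4 or Nr5a2 windows. Of the other motifs searched on both strands, none had a match in the entries of the 3 genes: the FXR element, an inverted repeat of GGTCA spaced by 1 base (0.0396% of promoters), the half-site TAGGTCA of the Rev-erb and ROR receptors (2.61%) and the E-box CACGTG (7.15%). A match is a run of letters, and binding was not measured.

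The labels of the libraries were checked first. Rela, at 42.8, 43.8 and 51.4 CPM in the untreated and 39.5, 62.3 and 46.4 CPM in the DSS libraries labelled knockout, was not lower than in wild-type livers, which ran from 39.8 to 55.5 CPM. CPM are estimated counts per 1000000 of a library size scaled by TMM, an edgeR factor that evens out composition. Stat3 ran from 43.0 to 74.8 CPM in the libraries labelled knockout and from 45.7 to 329.5 CPM in wild-type livers. Gene counts do not show which exons were read, so they do not check a deletion of some exons, and the genotype is given here as labelled. Sex-linked transcripts differed within and between groups. Xist stood at 1143 CPM in wild-type untreated replicate 3 and at 903 to 1283 CPM in all 3 DSS libraries labelled knockout, against at most 29.0 CPM in the other 8. The summed Y-linked transcripts were at most 0.120 CPM in those 3 DSS libraries, 30.1 CPM in wild-type untreated replicate 3 and 175 to 241 CPM elsewhere. Among the libraries labelled knockout, DSS and high Xist therefore cannot be told apart, and among the DSS libraries the same holds for the knockout label and high Xist. Hepatocyte markers summed to between 103446 and 187044 CPM in every library, while 5 cholangiocyte markers summed to at most 21.0 CPM and 8 exocrine pancreas markers to at most 25.5 CPM. Intestinal epithelium markers summed to 674 to 2143 CPM, mostly from Apoa4, an apolipoprotein gene that liver also expresses, and Cdx2 was at 0 in all 4 groups. That sum was 1036 to 1582 CPM untreated and 1834 to 1939 CPM after DSS in livers labelled knockout, with none of the 4 genes tested called by edgeR there, 2 at an unadjusted p under 0.05 and 2 by DESeq2.

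Levels were compared between the genes per kb of exon. In untreated wild-type livers the order of the group means was Cyp8b1, Nr1h4, Cyp7a1, Nr5a2 and Atp8b1, at 56.0 ± 5.17, 51.3 ± 5.02, 45.6 ± 25.9, 23.9 ± 3.74 and 14.1 ± 1.46 CPM per kb (SD, n = 3). Libraries of neighbours in that order overlapped except between Nr5a2 and Atp8b1. In wild-type livers after DSS the order was Cyp8b1, Nr1h4, Nr5a2, Atp8b1 and Cyp7a1, with Cyp7a1 at 9.17 ± 9.42 CPM per kb (SD, n = 3). Only Nr1h4 and Nr5a2 were neighbours without overlap there. In untreated livers labelled knockout Cyp7a1 was second, at 61.6 ± 43.8 CPM per kb, and after DSS it was last, at 8.69 ± 8.29 CPM per kb (SD, n = 3 each). Among neighbours in those groups, libraries overlapped for Cyp8b1 and Cyp7a1 and for Cyp7a1 and Nr1h4 without treatment, and only for Atp8b1 and Cyp7a1 after DSS. Cyp8b1 had the highest mean in all 4 groups, at 84.1 ± 40.2, 77.0 ± 60.6 and 78.0 ± 23.9 CPM per kb in wild-type DSS, knockout-labelled untreated and knockout-labelled DSS livers (SD, n = 3 each).

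Cyp7a1 was the most variable of the 5 genes. In untreated wild-type livers it stood at 302, 86.9 and 182 CPM, and after DSS at 28.5, 4.78 and 81.5 CPM. Every DSS liver lay below every untreated liver, although the highest of the former and the lowest of the latter were close. In untreated livers labelled knockout it stood at 318, 402 and 51.4 CPM, and after DSS at 25.9, 74.9 and 8.08 CPM. Here the groups overlapped, because untreated replicate 3 was below DSS replicate 2. The fitted log2 difference between DSS and untreated was -2.31 (SE 1.17, 95% interval -4.96 to 0.33) in wild-type livers and -2.82 (SE 1.19, -5.53 to -0.12) in livers labelled knockout. Neither passed the edgeR quasi-likelihood test after Benjamini-Hochberg adjustment over 17652 genes (adjusted p = 0.408 and 0.189). Leaving out single libraries moved the wild-type difference from -1.79, without DSS replicate 2, to -3.52, without DSS replicate 3, and that with the knockout label from -2.35, without untreated replicate 2 or DSS replicate 3, to -3.92, without DSS replicate 2, with no call in any of these fits. That test called 0.685% of all genes tested for DSS in wild-type livers and 7.02% in livers labelled knockout.

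**Figure D1:**
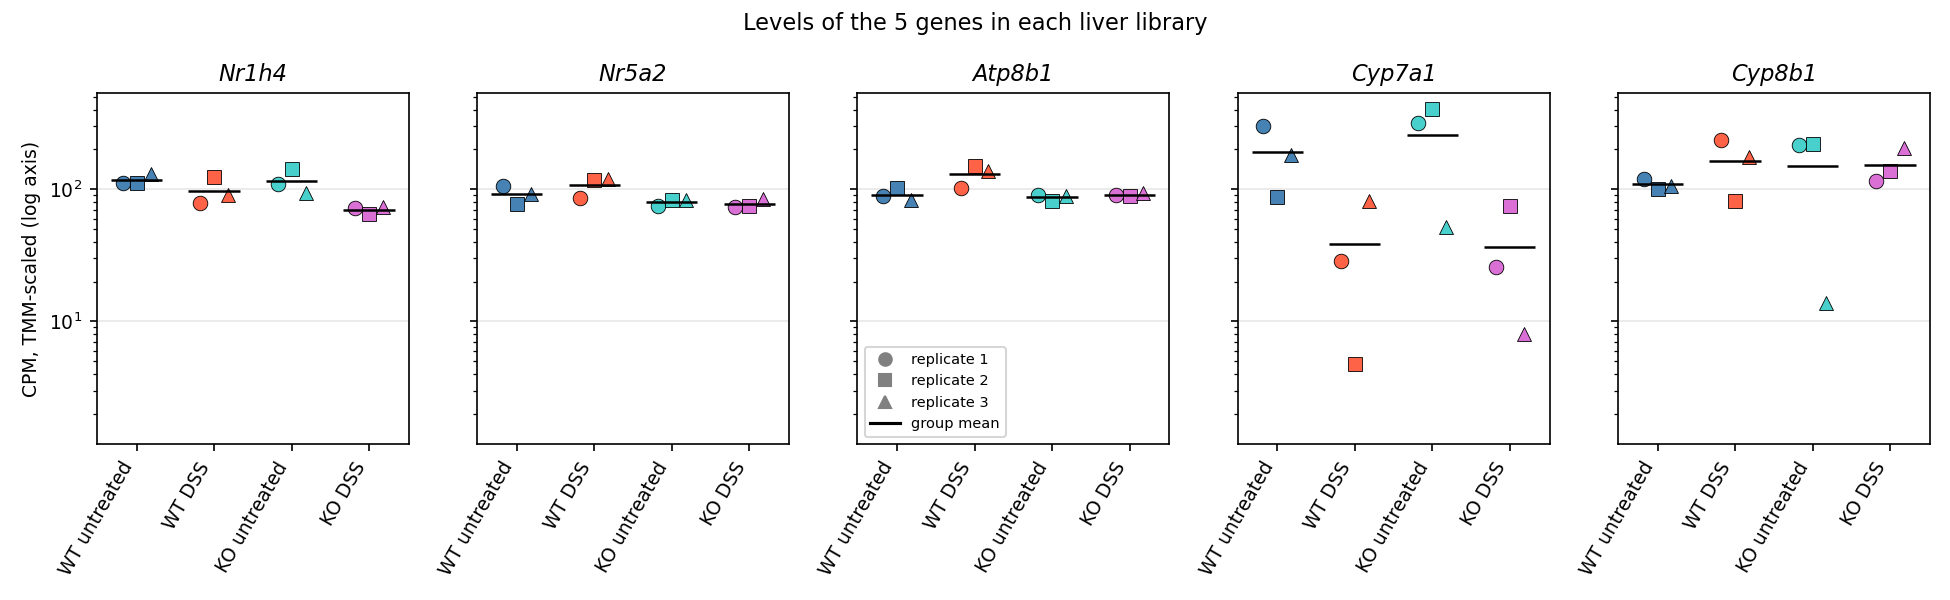
Levels of the 5 genes in each library, in TMM-scaled CPM on a log axis, with group on the x axis, 1 point per mouse and a bar at the group mean (KO stands for the knockout label). Cyp7a1 ran from 4.78 to 402 CPM, and Atp8b1 only from 82.1 to 150 CPM.

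Between the genotypes Cyp7a1 was not separated in these counts, whereas the RT-qPCR of the study gave it lower in knockout livers after DSS. The log2 difference of livers labelled knockout from wild-type livers was 0.43 (95% interval -2.09 to 2.96, adjusted p = 0.918, edgeR) without treatment and -0.08 (-2.60 to 2.45, adjusted p = 0.987) after DSS. These intervals reach beyond a 4-fold difference in either direction, so a difference of that size was not detectable with 3 mice a group. The genotypes differed in their DSS effect by -0.51 (SE 1.58, adjusted p = 0.904). The edgeR test called 0.0623% of genes between the untreated genotypes, 0.334% between the DSS genotypes and 0.408% for the difference between responses.

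Since the response of Cyp7a1 did not differ detectably by genotype, the mean of both DSS differences was also tested, a comparison added after the values had been seen. It was -2.57 on the log2 scale (SE 0.84, 95% interval -4.46 to -0.68), a 5.94-fold lower level after DSS. Leaving out single libraries moved it from -2.31, without wild-type DSS replicate 2, to -3.17, without wild-type DSS replicate 3. Its unadjusted edgeR p was 0.0132 and the adjusted p 0.111, in a comparison that called 7.31% of genes; DESeq2, which called 12.2% of genes there, gave an adjusted p of 0.00957. An exact permutation test of log2 (CPM + 0.5), with mice exchanged only within a genotype (400 assignments, two-sided), gave p = 0.015. With high Xist as a covariate the mean difference was -2.54 (adjusted p = 0.242), a fit in which only wild-type untreated replicate 3 has high Xist outside the DSS group labelled knockout.

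Cyp8b1 did not go with Cyp7a1 under DSS. In untreated wild-type livers it stood at 120, 101 and 106 CPM, and after DSS at 237, 80.9 and 174 CPM. The untreated values were close together and lay within the range of the DSS values. In untreated livers labelled knockout it stood at 215, 222 and 13.8 CPM, and after DSS at 115, 137 and 205 CPM. Untreated replicate 3 was the lowest of all 12 libraries, and its Cyp7a1 was the lowest of the 6 untreated libraries too. The log2 differences after DSS were 0.59 (SE 0.77, adjusted p = 0.793, edgeR) in wild-type livers and 0.02 (SE 0.76, adjusted p = 0.991) in livers labelled knockout. The former ran from 0.22 to 0.91 without single libraries, and without knockout-labelled untreated replicate 3 the latter was -0.52. Between the genotypes the log2 difference was 0.46 (95% interval -1.25 to 2.17) without treatment and -0.11 (-1.82 to 1.60) after DSS, neither past the threshold (adjusted p = 0.865 and 0.968). The untreated difference ran from 0.07 to 1.00 without single libraries.

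The ratio of both hydroxylases within a liver separated DSS from untreated mice in both genotypes. It was chosen after the values had been seen, and it does not depend on how libraries are scaled. Per kb of exon, Cyp8b1 over Cyp7a1 was 0.853, 2.49 and 1.25 in untreated wild-type livers and 17.8, 36.3 and 4.57 after DSS. It was 1.45, 1.18 and 0.576 without treatment and 9.54, 3.91 and 54.2 after DSS in livers labelled knockout. All 6 DSS livers lay above all 6 untreated livers. On the log2 scale the ratio was 3.37 higher after DSS in wild-type livers and 3.67 higher in livers labelled knockout. Each exact permutation p was 0.1, the smallest that 3 mice against 3 allow. Over both genotypes the ratio was 11.5-fold higher after DSS (exact permutation test within genotype, two-sided, p = 0.005, the smallest that 400 assignments can give). The ratio did not separate the genotypes, with log2 differences of -0.48 untreated and -0.18 after DSS (exact permutation p = 0.5 and 0.9). Untreated replicate 3 of the knockout label, low in both transcripts, had the lowest ratio of all, and wild-type untreated replicate 3, with high Xist, lay between the other 2 of its group. All 3 DSS livers labelled knockout were high in Xist and none of the untreated ones was. In that genotype DSS and high Xist cannot be told apart for the ratio, and the value over both genotypes shares this limit. A single wild-type library does not settle it. In all, 7 such values were tested over both genotypes, the 5 levels and 2 ratios. The levels of Cyp8b1, Nr5a2 and Atp8b1 gave p = 0.495, 0.45 and 0.025 in that exact permutation test.

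**Figure D2:**
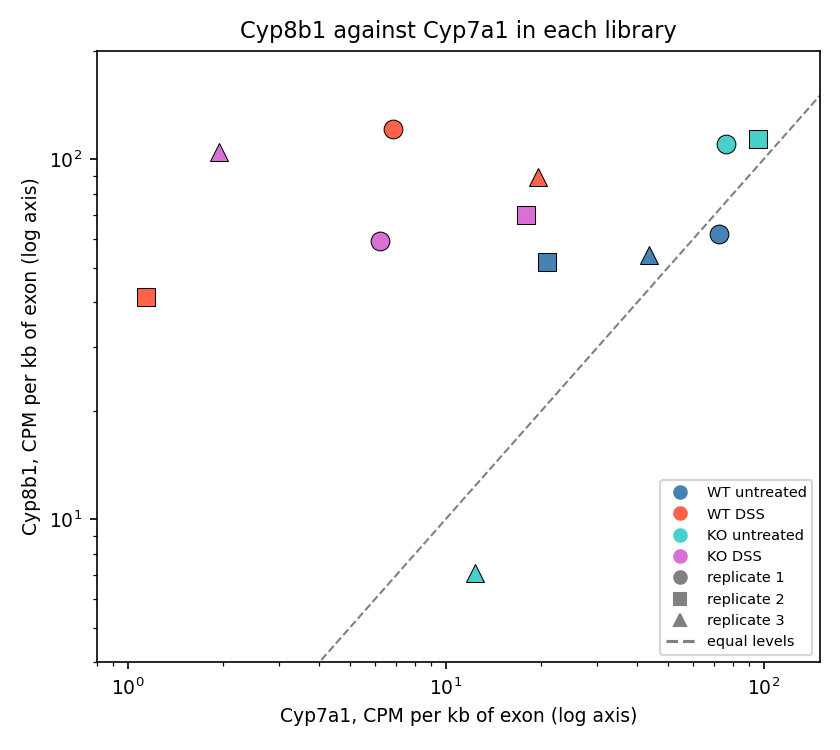
Cyp8b1 against Cyp7a1 in each of 12 libraries, both in CPM per kb of exon on log axes, 1 point per mouse, with a dashed line at equal levels (KO stands for the knockout label). Untreated livers lay near the line, with ratios of 0.576 to 2.49, and DSS livers lay above it, with ratios of 3.91 to 54.2.

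The spread between mice of a group was large for Cyp7a1, and for Cyp8b1 it rested on 1 library. The pooled SD within groups of log2 (CPM + 0.5) was 1.57 for Cyp7a1 and 1.22 for Cyp8b1, against 0.24 for Nr1h4, 0.19 for Nr5a2 and 0.17 for Atp8b1. Its median over all 17652 genes tested was 0.233. Among the 2161 genes with a mean of 50 to 250 CPM, Cyp7a1 was at percentile 99.6 and Cyp8b1 at 99.4, and Nr1h4, Nr5a2 and Atp8b1 were at 65.0, 43.0 and 32.5. The highest library exceeded the lowest 84.1-fold for Cyp7a1 and 17.1-fold for Cyp8b1, but 2.17-fold for Nr1h4, 1.64-fold for Nr5a2 and 1.83-fold for Atp8b1. Without knockout-labelled untreated replicate 3, at 13.8 CPM, the SD of Cyp8b1 was 0.49, at percentile 92.9, and its highest library exceeded the lowest 2.93-fold. For Cyp7a1 the SD stayed between 1.36 and 1.68 whichever library was left out.

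**Figure D3:**
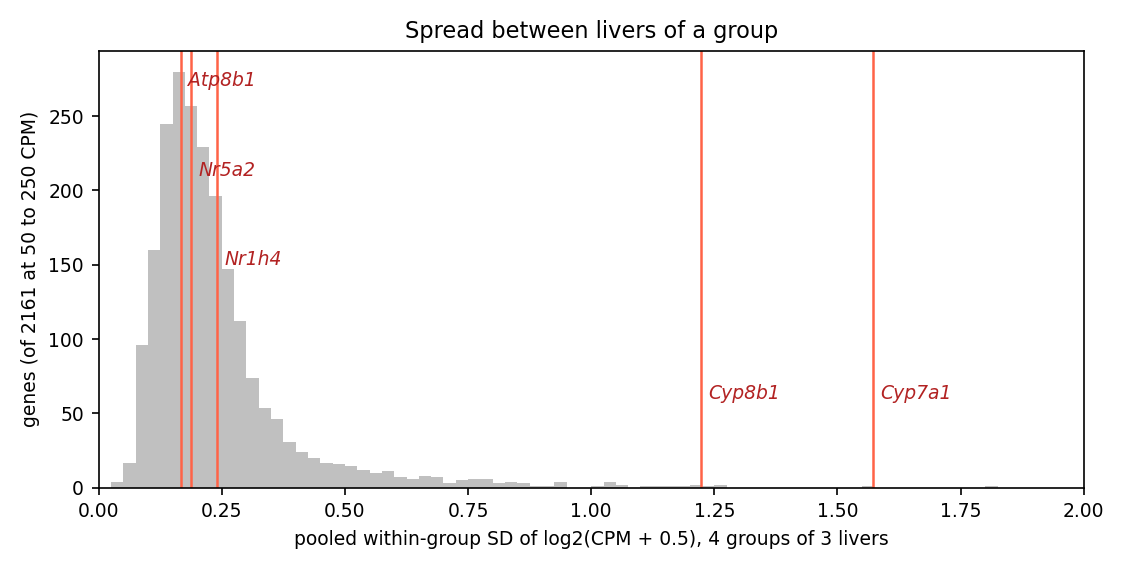
Histogram over genes of the pooled SD between mice within the 4 groups, in log2 (CPM + 0.5), for the 2161 genes at 50 to 250 CPM, with the 5 genes as vertical lines. Cyp8b1 at 1.22 and Cyp7a1 at 1.57 lie far to the right of the median of 0.202, but Cyp8b1 would stand at 0.49 without knockout-labelled untreated replicate 3.

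Genes of the circadian clock, which set daily rhythms of liver enzymes, were read beside the hydroxylases, since Cyp7a1 is known to cycle over the day and the time at which livers were taken was not given in the sources used here. Nr1d1, the repressor Rev-erb alpha, stood at 71.5, 108 and 97.6 CPM in untreated and 57.5, 43.3 and 91.3 CPM in DSS wild-type livers. In livers labelled knockout it stood at 4.98, 8.61 and 7.45 CPM untreated and at 4.07, 3.15 and 4.18 CPM after DSS. It was lower with the knockout label by edgeR, at log2 differences of -3.72 without treatment (adjusted p = 0.000362) and -4.08 after DSS (adjusted p = 0.00016). Of 17 clock genes tested, 8 fell after DSS in livers labelled knockout and none passed in wild-type livers, where 5 had an unadjusted p under 0.05 and DESeq2 called 1. All genes were called by edgeR at 7.02% and 0.685% in these comparisons. For a difference between genotypes in the effect of DSS, edgeR called none of the 17, 7 had an unadjusted p under 0.05 and DESeq2 called 4, against 4.5% of all genes. After DSS in livers labelled knockout, Dbp, an output gene of the clock, fell by 4.01 on the log2 scale (adjusted p = 0.0314) and Per2, a core repressor, by 2.80 (adjusted p = 0.00764). Arntl, which encodes the activator BMAL1 of the clock, stood at 31.9, 14.3 and 25.3 CPM untreated and at 37.9, 41.4 and 48.1 CPM after DSS in these livers, with no call (adjusted p = 0.232). The part of the clock in the Cyp7a1 and Cyp8b1 values was not tested.

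Nr1h4, the bile acid receptor, gave the only call among the 25 tests of 5 genes in 5 planned comparisons. At an unadjusted p under 0.05 there were 7, and DESeq2 called 3, namely Nr1h4 here and Atp8b1 in 2 comparisons. In livers labelled knockout it stood at 109, 142 and 93.7 CPM untreated and at 71.7, 65.3 and 73.5 CPM after DSS. The groups did not overlap, and the DSS values lay close together. Nr1h4 fell by 0.71 on the log2 scale (SE 0.19, 95% interval -1.12 to -0.31, edgeR adjusted p = 0.04), or 1.64-fold, in a comparison where 7.02% of all genes were called. In wild-type livers it stood at 111, 112 and 131 CPM untreated and at 78.0, 124 and 90.4 CPM after DSS. Replicate 2 lay within the untreated range and the other 2 below it, at a log2 difference of -0.28 (SE 0.19, adjusted p = 0.533). The difference between the responses was -0.43 (SE 0.26, adjusted p = 0.432), so the fall was not shown to be larger with the knockout label.

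The call for Nr1h4 rested on few mice, while its log2 difference ran from -0.84 to -0.53 over the 12 fits without a single mouse. The adjusted p passed 0.05 when a mouse was left out in 7 of 12 cases: 0.0553 and 0.0534 without wild-type untreated replicates 1 and 2, 0.077 and 0.174 without knockout-labelled untreated replicates 1 and 2, and 0.103, 0.107 and 0.0782 without knockout-labelled DSS replicates 1, 2 and 3. Without wild-type untreated 3 and knockout-labelled untreated 3 together it was 0.0557. With high Xist as a covariate the log2 difference was -0.95 with an adjusted p of 0.349. That fit separates DSS from high Xist in livers labelled knockout only through wild-type untreated replicate 3. The mean of both DSS differences was -0.49 (SE 0.13, adjusted p = 0.0397), and the exact permutation test within genotype gave p = 0.015. Of the 12 fits that leave out a mouse, that mean difference kept its edgeR call only without wild-type DSS replicate 2 and without knockout-labelled untreated replicate 3 (adjusted p = 0.00783 and 0.0344), and the other 10 gave adjusted p-values from 0.0641 to 0.112. The mean difference itself ran from -0.61 to -0.40 over these 12 fits.

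Between genotypes Nr1h4 was level without treatment, at a log2 difference of -0.04 (95% interval -0.44 to 0.36). After DSS all 3 livers labelled knockout lay below all 3 wild-type livers, at -0.47 (SE 0.19, adjusted p = 0.287). In bulk liver, fewer cells of a type and less RNA per cell cannot be told apart. Kupffer cell markers moved with the comparison in which Nr1h4 was called: 5 of 6 tested rose after DSS in livers labelled knockout, where 7.02% of all genes were called, their sum going from 277 to 307 CPM untreated to 565 to 920 CPM after DSS. In wild-type livers that sum ran from 229 to 485 CPM untreated and from 371 to 831 CPM after DSS. Neutrophil markers summed to 0.345 to 0.572 CPM untreated and 6.20 to 22.1 CPM after DSS in livers labelled knockout, with Ly6g, Retnlg, Mpo and Elane at 0 in the untreated group, and none of the 4 tested passed edgeR, while all 4 had an unadjusted p under 0.05 and DESeq2 called 3. In wild-type livers the neutrophil sum was 1.76 to 3.41 CPM untreated and 4.74, 84.6 and 2.41 CPM in DSS replicates 1, 2 and 3. Stellate cell markers summed to 364 to 415 CPM untreated and 426 to 525 CPM after DSS in livers labelled knockout, and 1 of 7, Des, rose (1.98 on the log2 scale, adjusted p = 0.0179), a share near that of all genes. Hepatocyte markers summed to 146891 to 162692 CPM untreated and 146877 to 187044 CPM after DSS in livers labelled knockout. Alb, the albumin gene, made up most of that sum. Of the 8 markers, 6 were lower after DSS in livers labelled knockout, with a median log2 difference of -0.28 against -0.01 over all genes, and 1, Hnf4a, passed edgeR, again near the share of all genes. The part of cell composition in the Nr1h4 result was not tested.

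**Figure D4:**
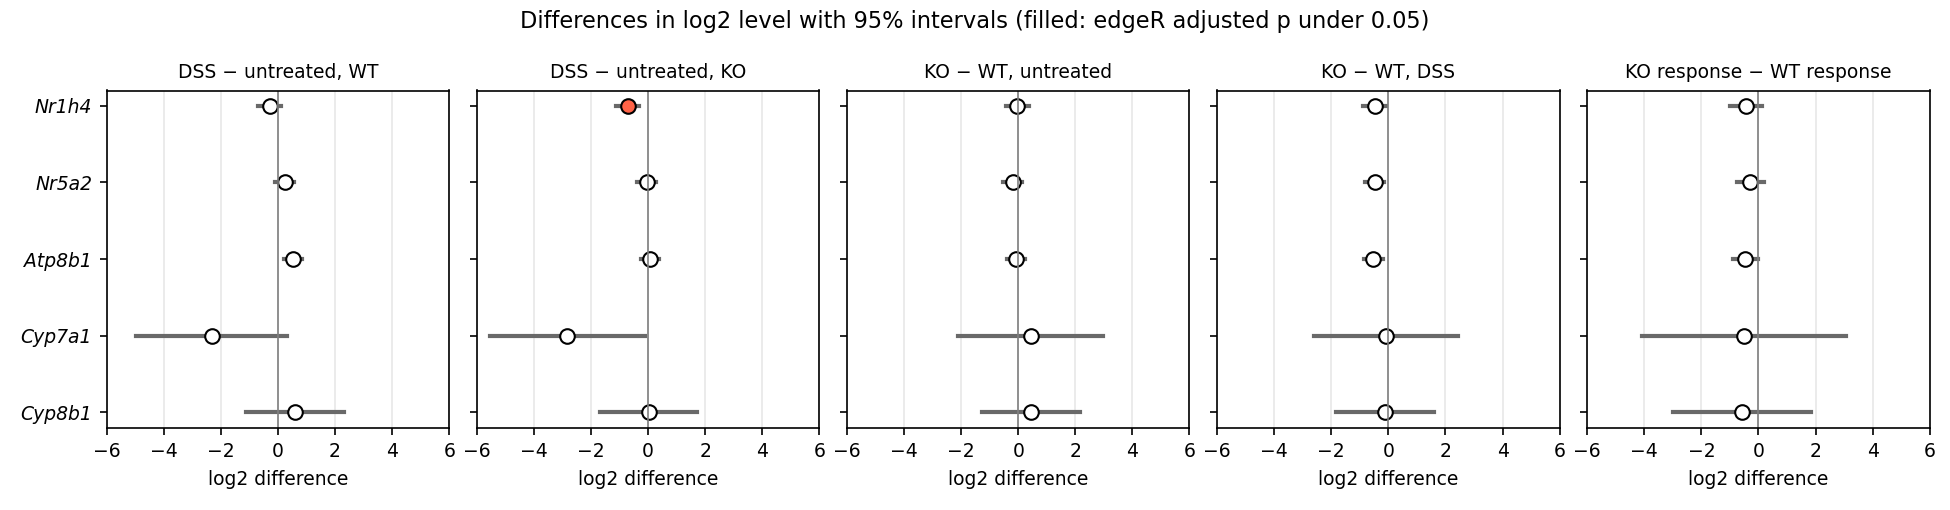
Log2 differences of the 5 genes in the 5 planned comparisons, on a common axis, as points with 95% intervals from the edgeR model (KO stands for the knockout label). Nr1h4 under DSS in livers labelled knockout, at -0.71, is the only filled point, and the intervals of Cyp7a1 and Cyp8b1 are several times wider than those of the other genes.

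Nr5a2, the activator of both hydroxylase genes, showed no call. In wild-type livers it stood at 106, 77.2 and 91.4 CPM untreated and at 86.6, 118 and 120 CPM after DSS. With the knockout label it stood at 74.7, 83.1 and 82.7 CPM untreated and at 73.1, 74.7 and 84.7 CPM after DSS. Treatment groups overlapped in both genotypes, at log2 differences of 0.24 (SE 0.16, adjusted p = 0.518, edgeR) and -0.05 (SE 0.16, adjusted p = 0.885). After DSS all 3 livers labelled knockout lay below all 3 wild-type livers, at -0.48 (SE 0.16, 95% interval -0.82 to -0.14), a comparison that also sets high against low Xist. The unadjusted edgeR p of that difference was 0.00888 and the adjusted p 0.203. The difference between responses was -0.29 (SE 0.22, adjusted p = 0.532).

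The balance of the receptors moved less than that of the enzymes. Nr1h4 over Nr5a2, per kb of exon, was 1.75, 2.41 and 2.40 in untreated and 1.50, 1.75 and 1.26 in DSS wild-type livers. With the knockout label it was 2.43, 2.84 and 1.89 untreated and 1.63, 1.46 and 1.45 after DSS. The log2 difference was -0.54 in wild-type livers, where the groups overlapped (exact permutation p = 0.2), and -0.64 in livers labelled knockout, where they did not overlap (exact permutation p = 0.1). Over both genotypes the exact permutation test within genotype gave p = 0.01 for a mean log2 difference of -0.59, a 1.5-fold lower ratio. This ratio was also chosen after the values had been seen, and with the knockout label DSS again cannot be told apart from high Xist.

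Atp8b1, the flippase, was higher after DSS in wild-type livers but not past the threshold. The gene (ENSMUSG00000039529) spans chr18:64688633-64820654 in mm9, with 28 exons. It stood at 88.2, 101 and 83.2 CPM untreated and at 102, 150 and 138 CPM after DSS. The groups did not overlap, but DSS replicate 1 lay just above the highest untreated liver. With the knockout label it stood at 90.8, 82.1 and 88.4 CPM untreated and at 90.5, 88.7 and 93.1 CPM after DSS. The DSS values lay within or just above the range of the untreated ones. The log2 difference after DSS was 0.52 (SE 0.15, 95% interval 0.20 to 0.83) in wild-type livers, with an unadjusted edgeR p of 0.00371 and an adjusted p of 0.122. In livers labelled knockout it was 0.06 (SE 0.15, adjusted p = 0.845). The difference between these responses was -0.46 (SE 0.21), with an edgeR adjusted p of 0.296 and 0.0452 before adjustment.

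After DSS, Atp8b1 was lower in all 3 livers labelled knockout than in all 3 wild-type livers, at a log2 difference of -0.52 (SE 0.15), where the groups also differ in Xist. Its adjusted p in the edgeR test was 0.149, and 0.00359 without adjustment. Without treatment the log2 difference was -0.06 (SE 0.15, adjusted p = 0.909). Wild-type DSS replicate 1 decided whether the test was passed. Without it Atp8b1 passed edgeR after DSS in wild-type livers (0.66, adjusted p = 0.0361) and between genotypes after DSS (-0.66, adjusted p = 0.0285). With all libraries DESeq2 also called both (adjusted p = 0.0234 and 0.0297).

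Counted over the 5 genes and 4 comparisons of groups, the 3 libraries of a group did not overlap those of the other in 6 of 20 cases. For DSS in wild-type livers these were Atp8b1 and Cyp7a1, where 18.7% of all genes did not overlap. For DSS in livers labelled knockout it was Nr1h4, where 31.8% did not. Between the genotypes there was none without treatment, where 20.2% of genes did not overlap, and after DSS there were 3, Nr1h4, Nr5a2 and Atp8b1, all lower with the knockout label, where 16.8% did not. In that last comparison all 3 libraries labelled knockout were high in Xist and the wild-type ones were not, so the label and sex-linked transcripts cannot be told apart for these 3 genes.

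The acute-phase genes, secreted by hepatocytes in inflammation, set the wild-type DSS livers apart from each other. The summed level of 13 of them was 27850, 238172 and 71776 CPM in wild-type DSS replicates 1, 2 and 3, against 20144 to 26245 CPM in untreated wild-type livers. In livers labelled knockout it ran from 18192 to 21094 CPM untreated and from 22536 to 27635 CPM after DSS. In TMM-scaled CPM, Atp8b1 and Nr5a2 were highest in the 2 livers with the highest acute-phase sums, wild-type DSS replicates 2 and 3. Wild-type DSS replicate 1, near the range of untreated livers in its acute-phase sum, was lowest of its group in Atp8b1 and Nr5a2. The TMM factor of wild-type DSS replicate 2 was 0.758, against 0.953 to 1.125 in the other libraries, which raises its CPM. By total count alone Atp8b1 kept this order. Nr5a2 in that library then lay within the untreated wild-type range and below wild-type DSS replicate 1. Cyp7a1 was lowest of all 12 libraries, at 4.78 CPM, in wild-type DSS replicate 2, which had the highest acute-phase sum. It was highest of the DSS livers, at 81.5 CPM, in wild-type DSS replicate 3, with the second highest sum, and stood at 25.9 CPM in knockout-labelled DSS replicate 1, with the smallest sum of the DSS livers. None of the 13 acute-phase genes passed edgeR after DSS in either genotype alone. At an unadjusted p under 0.05 there were 13 in wild-type livers and 4 in livers labelled knockout, and DESeq2 called 12 and 2, all higher, where it called 5.91% and 15% of all genes. The part of the acute-phase response in the Atp8b1, Nr5a2 and Cyp7a1 values was not tested.

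**Figure D5:**
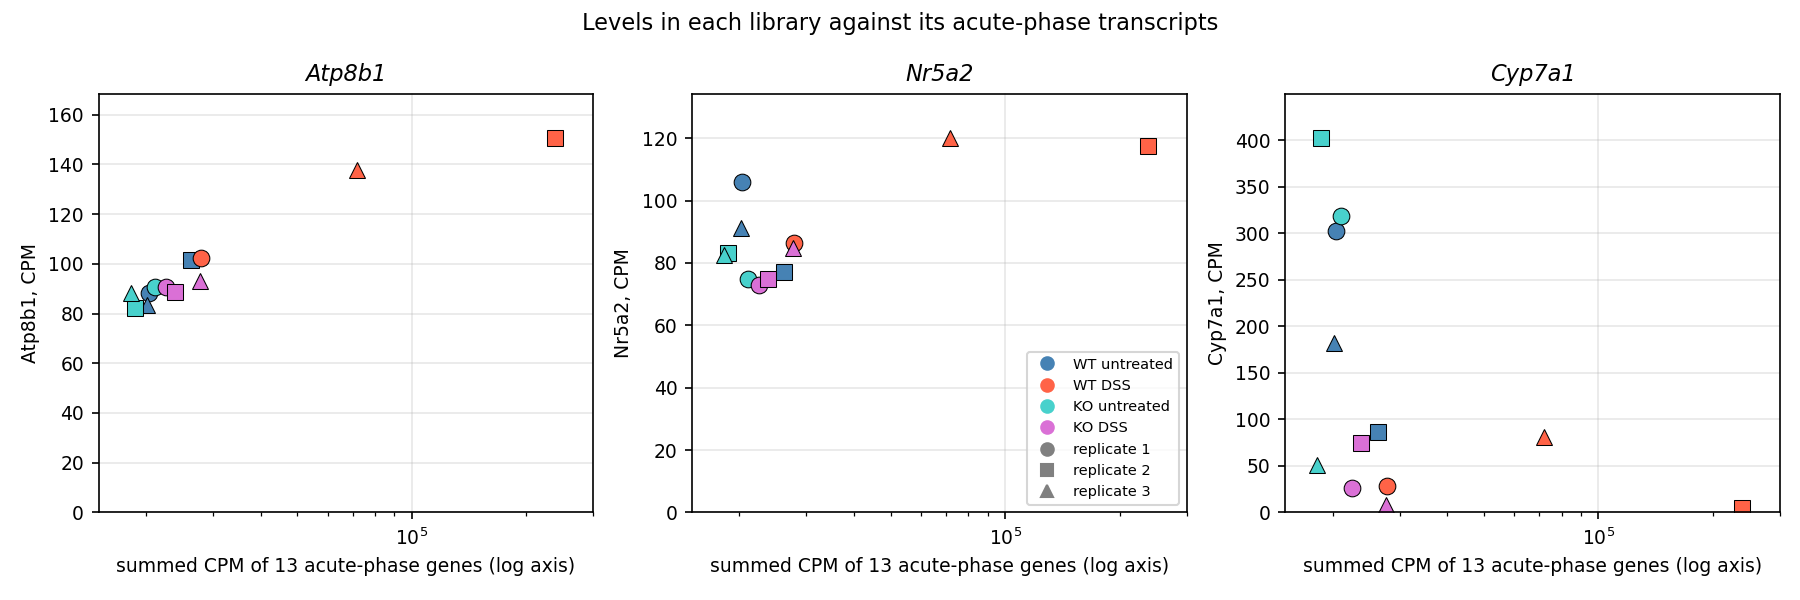
Atp8b1, Nr5a2 and Cyp7a1 in CPM (y axes, from 0) against the summed CPM of 13 acute-phase genes on a log axis, 1 point per library (KO stands for the knockout label). Wild-type DSS replicates 2 and 3 lie apart at 238172 and 71776 CPM, with Atp8b1 at 150 and 138 CPM.

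The genes whose pattern over the 12 libraries was most like that of each gene were ranked by Pearson r of log2 (CPM + 0.5) among 11007 named genes with a mean of at least 1 CPM. The libraries share treatment, genotype and depth, and the low TMM factor of wild-type DSS replicate 2 enters every gene, so these values are descriptions. For Atp8b1 they were Fga and Fgb, 2 chains of fibrinogen, with r = 0.97 each, and Prtn3, a neutrophil protease, with r = 0.96. Without wild-type DSS replicates 2 and 3, the libraries farthest from the Atp8b1 median, r was 0.80 for Fga, 0.82 for Fgb and 0.63 for Prtn3. For Nr5a2 they were Nrbp1, Pid1 and Neu1 (0.88, 0.87 and 0.87), which dropped to 0.67, 0.57 and 0.67 without the same libraries. For Nr1h4 they were A630052C17Rik, Slc25a16 and Vmo1 (0.93, 0.92 and 0.91), which kept 0.93, 0.86 and 0.85 without knockout-labelled DSS replicates 1 and 2. For Cyp7a1 they included 2610024G14Rik and Rilp (0.91 and 0.90), and for Cyp8b1 they were Chn2, Rpl30-ps10 and Prdx3 (0.85, 0.85 and 0.81). Without the 2 libraries farthest from its median, r for those of Cyp7a1 was 0.83 and 0.81, and for those of Cyp8b1 it was 0.72, 0.31 and 0.58. Ranking by Spearman rho instead kept 1 of the 15 genes so ranked. Among the 5 genes, r was highest for Nr5a2 and Atp8b1 (0.71, Spearman rho 0.28) and was 0.16 for Cyp7a1 and Cyp8b1 (rho 0.29). For deviations from the group means, r was 0.59 for Cyp7a1 and Cyp8b1, but 0.36 without knockout-labelled untreated replicate 3. For Nr5a2 and Atp8b1 it was 0.38, but -0.54 without wild-type DSS replicate 1 and 0.79 without wild-type untreated replicate 2.

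The partners of these genes were read from a list. Nr0b2, the repressor SHP and a target of FXR, ran from 6.02 to 40.6 CPM over the 12 libraries and gave no call, with edgeR adjusted p = 0.873 and 0.736 for DSS in wild-type livers and those labelled knockout. Rxra, the partner with which FXR binds DNA, stood at 521, 592 and 501 CPM untreated and 307, 408 and 462 CPM after DSS in livers labelled knockout (log2 difference -0.46, adjusted p = 0.177). These groups did not overlap. Fgfr4 and Klb, which form the receptor for the gut hormone FGF15, gave no call. Fgfr4 was 0.50 higher on the log2 scale after DSS in wild-type livers (SE 0.17, adjusted p = 0.176), and Klb ran from 53.1 to 104 CPM over all libraries. Tmem30a, the subunit that Atp8b1 needs to leave the endoplasmic reticulum, ran from 272 to 490 CPM with no call (log2 differences -0.06 and 0.30 after DSS, adjusted p = 0.927 and 0.393).

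Hnf4a, whose motif adjoins that of LRH-1 in the Cyp8b1 promoter printed above, fell after DSS in livers labelled knockout. It stood at 1144, 1223 and 1226 CPM untreated and at 624, 789 and 797 CPM after DSS, a log2 difference of -0.70 (SE 0.18, edgeR adjusted p = 0.0325). In wild-type livers it stood at 976, 890 and 803 CPM untreated and at 702, 893 and 945 CPM after DSS (-0.07, adjusted p = 0.902). The difference between the responses was -0.63 (SE 0.25, edgeR adjusted p = 0.240), so the fall was not shown to be larger with the knockout label. Untreated livers labelled knockout lay above the wild-type ones, at 0.43 (adjusted p = 0.366), and after DSS the genotypes differed by -0.20 (adjusted p = 0.659). With the knockout label, DSS and high Xist cannot be told apart here either. Of the 16 other receptors and regulators tested, Hnf4a among them, 3 fell and none rose by edgeR after DSS in livers labelled knockout, where 7.02% of all genes were called. At an unadjusted p under 0.05 there were 10, and DESeq2 called 3 lower and 1 higher, against 15% of all genes. The other two that edgeR called were Nr1i3, the xenobiotic receptor CAR, at -0.99 (adjusted p = 0.0116), and Ppara, the fatty acid receptor, at -0.93 (adjusted p = 0.0145). The median log2 difference of the list there was -0.38, against -0.01 over all genes. None of the 16 passed in the wild-type DSS comparison, where the median was -0.09, 2 had an unadjusted p under 0.05 and DESeq2 called none.

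Calls among the other enzymes of bile acid synthesis were read against the share of all genes. Of 15 tested besides Cyp7a1 and Cyp8b1, none passed after DSS in wild-type livers (median log2 difference -0.14), where 0.685% of all genes were called. In livers labelled knockout, where 7.02% were called, 2 fell and none rose (median -0.31). They were Scp2, which shortens the bile acid side chain in peroxisomes, at -1.18 (edgeR adjusted p = 0.0372), and Slc27a5, which activates bile acids for conjugation, at -0.73 (adjusted p = 0.0487). DESeq2 called 1 and 5 of them for DSS in wild-type livers and those labelled knockout, all lower, where it called 5.91% and 15% of all genes, and 1 had an unadjusted edgeR p under 0.05 in wild-type livers. Between the genotypes none of the 15 passed in either treatment, with medians of 0.27 untreated and -0.02 after DSS. Unadjusted p-values under 0.05 numbered 2 and 4 there, and DESeq2 called none and 2, where it called 2.07% and 3.41% of all genes. None of 13 bile acid and lipid transporters and none of 7 FXR target genes passed edgeR in any of the 5 planned comparisons. For DSS in wild-type livers and those labelled knockout, 3 and 3 transporters had an unadjusted p under 0.05 and DESeq2 called 2 and 3, and for FXR targets these counts were 0 and 1 by either measure. In the other 3 comparisons 1 to 4 transporters and 0 to 2 FXR targets had an unadjusted p under 0.05, and DESeq2 called 0 to 2 and none. Their medians after DSS were -0.48 and -0.36 in wild-type livers, against 0.02 over all genes, and -0.23 and 0.05 in livers labelled knockout.

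Cholesterol, the substrate of Cyp7a1, is made by a pathway whose genes were higher after DSS in both genotypes. Of 10 tested, 2 rose in wild-type livers and 4 in livers labelled knockout, and none fell. Of all genes 0.685% and 7.02% were called there. The medians were 0.65 and 0.69 on the log2 scale. Sqle, which makes squalene epoxide, rose by 0.98 in each (edgeR adjusted p = 0.0465 and 0.0145). Cyp51, the lanosterol demethylase, also rose in each, by 0.98 and 0.99 (adjusted p = 0.049 and 0.0146). Idi1 and Fdft1, which act before squalene, rose by 1.51 and 0.83 in livers labelled knockout (adjusted p = 0.00838 and 0.0471). None of the 10 passed for a difference between genotypes in the effect of DSS, with 1 at an unadjusted p under 0.05 and none by DESeq2.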

How the data were processed

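Libraries were made from rRNA-depleted RNA of whole liver, 1 per mouse (12 in all), and read from both ends. Per the labels the authors used fastp, HISAT2, StringTie and the mm9 genome; strandedness was not given in the sources used here. The deposited values are estimated counts per gene, as whole numbers and not normalized. GENCODE vM1 named 28677 of 51609 rows, and 23458 rows were 0 in all libraries.

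Tests used edgeR 4.0.16 under R 4.3.3: filterByExpr (17652 genes kept), TMM, and robust quasi-likelihood F tests in 1 model of 4 groups, with Benjamini-Hochberg adjustment over all genes and a threshold of 0.05. DESeq2 1.42.0, limma 3.58.1 (voom with sample weights), other scalings and filters, only the groups compared, a replicate block, a covariate for Xist above 100 CPM and fits without each library were the alternatives. Single values were tested by exact permutation of log2 (CPM + 0.5). Levels per kb used the union of annotated exons. The steps were tested on simulated data. No 2 libraries of a group agreed within sampling noise.

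The genes and lists were chosen with earlier results of these data known. The text names the 5 genes, partners (Nr0b2, Rxra, Fgfr4, Klb, Tmem30a, Hnf4a), up to 3 called genes of each pathway list, 4 clock genes, sex-linked genes, Rela, Stat3 and the 3 genes most alike in pattern to each. List members without a single row of their own were left out. Some results of the lists and of the ranking by pattern are not reported here.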

Additional observations from a re-analysis of the deposited data

How the results depend on the processing

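The replicate numbers were not taken as pairs of mice, which the labels do not give. Correlations of the deviations ran from -0.073 to 0.198 for same-numbered libraries and from -0.191 to 0.186 for the others. Between the genotypes the highest value in each treatment was for same-numbered libraries, so a pairing is not excluded. With the replicate block the number of the 5 genes past the threshold for DSS in livers labelled knockout went from 1 to 0 (Nr1h4: -0.69 on the log2 scale, edgeR adjusted p = 0.0504). It was also 0 with the Xist covariate, which left 4 genes called of all tested where edgeR otherwise called 1240, and without wild-type untreated 3 and knockout-labelled untreated 3 together, a choice made after seeing the data. Leaving out single libraries gave 0 to 1. For DSS in wild-type livers and for the genotypes after DSS the number went from 0 to 1 with DESeq2, and was 0 to 1 without single libraries. For the mean of both DSS differences it went from 1 to 0 with the Xist covariate, to 2 with DESeq2 and was 0 to 1 without single libraries.

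Over all genes, DESeq2 called 857, 2326, 322, 582 and 699 genes, in the order DSS in wild-type livers, DSS with the knockout label, genotypes untreated, genotypes after DSS, and difference of DSS effects, where edgeR called 121, 1240, 11, 59 and 72. With the Xist covariate edgeR called 50, 4, 2, 5 and 4, and with the replicate block 119, 1164, 33, 66 and 128. Fitting only the groups compared gave 21, 1698, 60 and 41 for the first 4, voom gave 210, 1797, 95, 29 and 65, and total count scaling 86, 821, 5, 53 and 59. The cause of these differences was not tested.

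Signs of the 5 genes and their partners turned where the main value was smaller than its SE, and for Hnf4a (-0.20, SE 0.17). For untreated genotypes Nr1h4 was 0.044 with the Xist covariate, 0.040 with voom, 0.17 without wild-type untreated 3 and knockout-labelled untreated 3, and -0.22 to 0.088 without single libraries. Atp8b1 there ran from -0.12 to 0.023 and Cyp7a1 from -0.042 to 0.94 without single libraries. For DSS in livers labelled knockout Cyp8b1 was -0.52 without the same 2 libraries and -0.52 to 0.41 without single ones. For the genotypes after DSS, Cyp7a1 was 0.011 by total count scaling, 0.021 with the Xist covariate and -1.17 to 1.13 without single libraries, and Cyp8b1 ran from -0.44 to 0.26. The Cyp7a1 difference between responses ran from -1.60 to 0.69. With the Xist covariate Tmem30a was -0.40 and Hnf4a 0.014 for the genotypes after DSS. Without single libraries Tmem30a ran from -0.031 to 0.20 and Nr0b2 from -0.64 to 0.077 there. By total count scaling, 7 in place of 6 of 20 pairs did not overlap, with Nr1h4 for DSS in wild-type livers added.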
